A study of Mus musculus with 2 samples.

Results

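Neurogenic retinal progenitors are cells of the fetal retina that are leaving the multipotent progenitor pool to make neurons. They switch on basic helix-loop-helix (bHLH) transcription factors such as Atoh7, Neurog2 and Olig2, together with the Notch ligands Dll1, Dll3 and Dll4. Ligand on one cell activates Notch receptors on its neighbours, where the targets Hes1 and Hes5 repress the bHLH genes and keep those neighbours as progenitors. Late in gestation the retina makes photoreceptors, amacrine cells and the last horizontal cells, after the main wave of ganglion cells.

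The cells came from 2 single-cell libraries, each of 3 pooled eye cups at E17.5 by the labels (the study's methods count both eyes of each animal), and each genotype was 1 library. Both genotypes carried a human last exon in Myrf, the gene of a membrane-bound transcription factor expressed in the retinal pigment epithelium (RPE). The control, Myrf humWT/humWT, had the normal human sequence, and Myrf humdG/humdG had a frameshifted human sequence of that exon, which mimics a splice variant of patients and alters the C-terminus. Both were homozygous germline alleles, carried by all cells of the eye and body. With 1 library for each genotype no difference between genotypes had a replicate check. No p-value is therefore given, and all intervals are 95% intervals that cover counting error only.

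Members were chosen by the unique molecular identifiers (UMIs, 1 for each captured transcript) of marker genes. A barcode needed over 500 genes, under 15% of UMIs from mitochondrial genes and at least 3000 UMIs. At least 2 of the 5 gate genes Atoh7, Neurog2, Olig2, Dll3 and Foxn4 had to be found, with at least 4 UMIs over the 5. Barcodes with 3 or more of the photoreceptor genes Crx, Gngt2, Pdc, Gnb3 and Prdm1, or 2 or more of the amacrine and horizontal genes Tfap2a, Tfap2b, Ptf1a and Prdm13, were left out. The rule gave 1233 members among 36986 deposited barcodes, 387 in humWT and 846 in humdG. Their median depth was 9533 and 9682 UMIs, within a range of 3024 to 84702 in humWT and 3008 to 103072 in humdG. The libraries held 129135207 and 114319529 UMIs in all, and 102 barcode sequences occurred in both. Of the members, 2 in humWT and 5 in humdG carried such a barcode, and 0 barcodes were members in both libraries.

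The members were 3.53% of the 10959 humWT barcodes that passed the quality limits (Clopper-Pearson interval 3.19 to 3.89) and 9.85% of the 8588 humdG barcodes (9.23 to 10.5). The other retinal gates were also larger shares of the humdG library. Progenitors gated on multipotent progenitor genes, among them Sfrp2, Fgf15, Hes1 and Dkk3 (multipotent-gated progenitors), were 12.4 and 24.1% of barcodes in humWT and humdG respectively, photoreceptor precursors 4.94 and 8.74%, and amacrine and horizontal precursors 4.64 and 10.2%. Within these 4 retinal gates together the members were 13.8% in humWT (12.6 to 15.2) and 18.6% in humdG (17.503 to 19.8). More barcodes lay under the limit of 3000 UMIs in humdG (55.1%) than in humWT (35.6%). With 1 library each, dissection, depth and genotype cannot be told apart as sources of these shares.

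Few members held all of the gate genes. Neurog2 was found in 82.4% of humWT and 84.2% of humdG members, Atoh7 in 71.3% and 80.3%, and Dll3 in 68.5% and 61.1%. Foxn4 was found in 60.2% and 60.05% and Olig2 in 50.6% and 38.4%. All 5 were found in 82 humWT and 144 humdG members, and exactly 2 in 116 and 248. Atoh7 supplied 44.2% of the UMIs of the 5 genes in humWT and 54.2% in humdG, with up to 93 and 210 UMIs in 1 cell. These values chose the members and are given as a description.

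At the edge of the rule, members with exactly 4 summed UMIs (60 in humWT and 132 in humdG) held 897 and 711 Hes6 UMIs per 1000000 UMIs (CPM). Cells just outside it, with at least 2 gate genes and 3 summed UMIs (88 and 276), held 644 and 483 CPM. A further 180 humWT and 485 humdG cells met the rule on the gate genes and were left out for photoreceptor or amacrine genes, with a Hes6 level of 606 and 516 CPM.

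The label was checked with Hes6, a bHLH factor that promotes neurogenesis and that the rule did not use (ENSMUSG00000067071, chr1:91411483-91414038, minus strand, GRCm38). Its summed level was 1577 CPM (interval 1539.5 to 1615) in humWT members and 1492 CPM (interval 1467 to 1518) in humdG members. It was 390.1 and 379 CPM in multipotent-gated progenitors, 442 and 490.1 in photoreceptor precursors and 219.9 and 364 in amacrine and horizontal precursors. The members were thus the highest of the 4 gates in both libraries. The log2 ratio of members to multipotent-gated progenitors was 2.02 (1.96 to 2.07) in humWT and 1.98 (1.94 to 2.02) in humdG. After each cell was thinned to 3000 UMIs, Hes6 was found in 90.7% and 89.1% of members and 51.5% and 56.5% of multipotent-gated progenitors. Red blood cells, which should lack it, were used to read the free RNA of each library. Hes6 was found in 16.5% and 26.1% of them, at median depths of 4888 and 4912 UMIs before thinning. Their gate, barcodes with at least 20% globin UMIs, also held 1 humWT and 2 humdG members.

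Short promoter windows are shown for 5 genes of this programme that held a match because proneural bHLH factors bind the E-box, a motif of the form CANNTG. The letters CAGATG and CAGCTG were searched on both strands of RefSeq promoters (250 bases before to 50 after the gene start, 1 for each gene, GRCm38.p6), and CAGATG reads CATCTG on the other strand. Each window is written in the direction of its gene with the matched letters in capitals.
Atoh7, chr10:63099556-63099583, plus strand: ccaggccactcCAGATGgtgtgttagtt
Dll3, chr7:28301776-28301803, minus strand: ccggcatccagCAGCTGcgactcctgag
Hes6, chr1:91414193-91414220, minus strand: ggaagcggctgCAGCTGccaactgtcac
Gadd45g, chr13:51846609-51846636, plus strand: cagcctcccgcCAGCTGgcggcggcgcg
Srrm4, chr5:116591959-116591986, minus strand: cttttgttatgCAGATGgcggcgggagg
Of the 5 genes of the rule, Atoh7 alone held CAGATG and Dll3 alone CAGCTG, and Neurog2, Olig2 and Foxn4 held neither in this window. Of the 16 genes on the list of neurogenic identity used below, 12 had a promoter in the table, of which 4 held CAGCTG and 1 held CAGATG. In the 9871 promoters of all genes counted in the comparison with multipotent-gated progenitors the shares were 14.5% for CAGCTG and 10.9% for CAGATG, while in all 27025 promoters they were 16.1% and 17.2%. Among genes at least 2-fold higher in members than in multipotent-gated progenitors, 195 of 268 had a promoter, of which 22.6% held CAGCTG and 15.4% CAGATG, and among genes at least 2-fold lower the shares were 18.4% and 11.4% of 114. The E-box CACGTG, also searched, was in 10.3% of the promoters of counted genes, 7.18% of those of the higher genes, 6.14% of those of the lower genes and none of the 5 rule genes. A match is a run of letters and does not show binding.

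The comparison with multipotent-gated progenitors describes how neurogenic cells differed from the progenitors around them. Both gates were cut from the same libraries, so it carries no test, and the genes that define the gates were left out. multipotent-gated progenitors were also limited to cells with fewer than 2 of the 5 genes of the rule, which bears on every neurogenic gene in this comparison. Of 12720 genes with at least 50 UMIs over the 2 gates in each library, 268 (2.11%) were at least 2-fold higher in members in both libraries and 164 (1.29%) at least 2-fold lower. The median log2 ratio over all these genes was -0.00 in humWT and -0.03 in humdG.

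Neurogenic genes that the rule did not use were higher as a group. Of 16 on the list, 15 were at least 2-fold higher in both libraries and 0 lower, with a median log2 ratio of 2.97 in humWT and 2.61 in humdG. Insm1, a zinc finger factor of newborn neurons, was at 163 and 160.4 CPM in humWT and humdG members against 16.0 and 24.99 CPM in multipotent-gated progenitors. Btg2, an antiproliferative gene known from progenitors dividing to make neurons, was at 336 and 369 CPM against 21.0 and 27.8, a log2 ratio of 4.00 (3.81 to 4.19) in humWT and 3.73 (3.60 to 3.86) in humdG. Both were highest in members among the 4 gates, in both libraries.

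Other genes of the list continued into the precursors. Srrm4, a regulator of neuronal microexon splicing, was at 263 and 239 CPM in members and 18.6 and 25.1 in multipotent-gated progenitors, and at 339.7 and 312 in photoreceptor precursors. Neurod1, a bHLH factor of photoreceptor and amacrine differentiation, was at 293 and 276 CPM in members, 12.4 and 26.3 in multipotent-gated progenitors and 677 and 844 in photoreceptor precursors. Sox4, an SRY-box factor of neuronal differentiation, was the 1 listed gene under 2-fold, with log2 ratios of 0.87 and 0.67. Its level was highest in amacrine and horizontal precursors, at 781 and 855 CPM.

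Among the Notch ligands and their modulators, 3 of 9 were at least 2-fold higher in members in both libraries and 0 lower. Dll4 was at 76.7 CPM (interval 68.7 to 85.5) in humWT members and 84.8 CPM (interval 78.8 to 91.1) in humdG members, against 2.57 and 3.53 CPM in multipotent-gated progenitors. It was at 14.7 and 23.2 CPM in photoreceptor precursors and 3.89 and 12.5 in amacrine and horizontal precursors, so that members were the highest gate in both libraries. Dll1 was at 108 and 108 CPM against 15.8 and 19.1. Mfng, a Fringe enzyme that adds sugars to Notch, was at 72.8 and 73.9 CPM against 9.56 and 12.6. Its relative Lfng lay on the other side, with log2 ratios of -0.93 (-1.26 to -0.63) in humWT and -0.51 (-0.74 to -0.29) in humdG. The intervals of the ligand Jag1 and of Numb, an inhibitor of Notch, included 0 in both libraries.

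Notch receptors and targets were mostly lower in members. Hes1 was a gene of the multipotent gate and was not counted, and of the other 11 listed genes 10 had a log2 ratio below 0 in each library. At least 2-fold lower in both libraries were 3, and 0 were higher. Heyl had log2 ratios of -2.00 and -1.47, Hey2 of -1.69 and -1.34 and Id3, an inhibitor of bHLH factors, of -1.41 and -1.28. Hes5, a main Notch effector of the retina, was at 513 and 789 CPM in members against 966 and 1009.9 in multipotent-gated progenitors. The receptor Notch1 was the exception, at 216 and 196 CPM in members against 130.3 and 120.4, a log2 ratio of 0.73 (0.61 to 0.84) in humWT and 0.71 (0.61 to 0.79) in humdG.

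**Figure D1:**
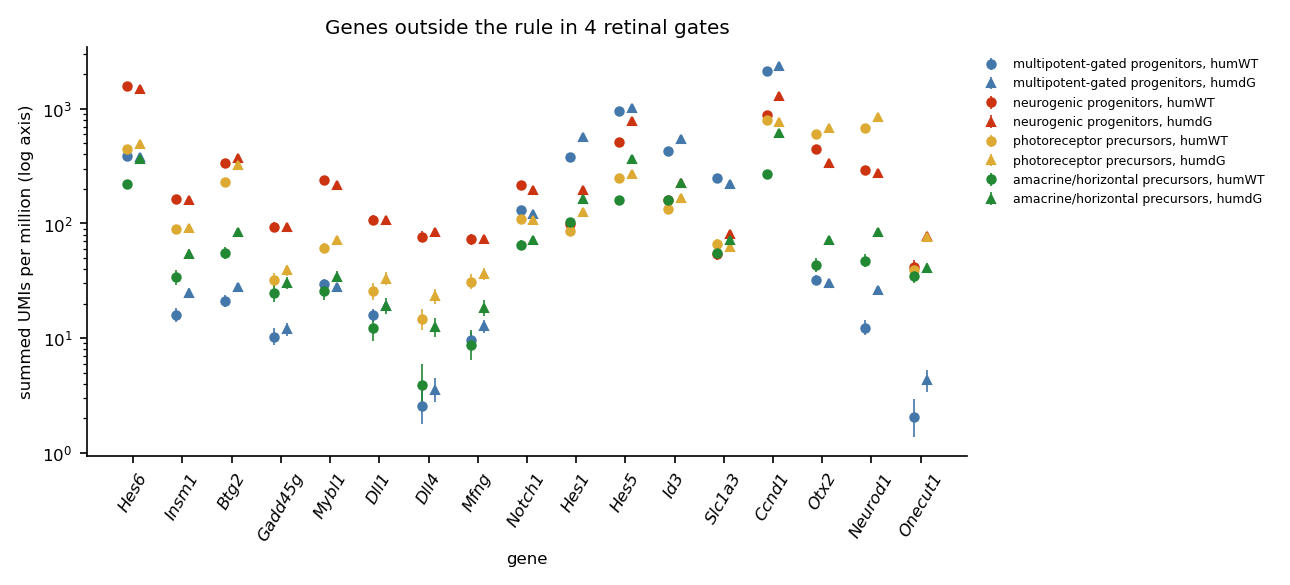
Summed CPM of 17 genes (log axis) in the 4 retinal gates for humWT and humdG, with 95% Poisson intervals for counting error. Hes6, Insm1, Btg2, Dll1 and Dll4 were highest in the neurogenic progenitors in both libraries, and Hes5, Id3, Slc1a3 and Ccnd1 in the multipotent-gated progenitors, while Hes1 was used to choose the multipotent-gated progenitors.

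Most genes with the largest differences in both libraries were outside the Notch and bHLH families. Sstr2, a somatostatin receptor, was at 74.9 and 71.0 CPM in members against 1.84 and 2.17 in multipotent-gated progenitors. Pkib, an inhibitor of protein kinase A, was at 151 and 141 CPM against 4.78 and 5.49. Pcdh17, a protocadherin, was at 276 and 297 CPM against 14.2 and 18.7, and Slit1, an axon guidance ligand, at 60.5 and 47.3 against 2.87 and 3.07. Onecut1, a factor of horizontal cell specification, was at 41.4 and 78.1 CPM against 2.06 and 4.28, and Otx2, required for photoreceptor and bipolar fates, at 451 and 334 against 32.3 and 30.5. Dll4, Btg2, Neurod1, Elfn1, Gm14207, Hes2, Igsf21, Tfap2d and Ankrd33b were the rest of the 15 highest.

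Genes of multipotent progenitors were lower in part. Of the 14 listed genes that could be counted, 2 were at least 2-fold lower in both libraries and 0 higher. Slc1a3, a glutamate transporter of progenitors and glia, had log2 ratios of -2.18 (-2.38 to -1.99) in humWT and -1.44 (-1.56 to -1.33) in humdG, and Nr2e1, an orphan nuclear receptor of progenitors, of -1.45 and -1.29. Pax6 was at -0.93 and -0.58 and Lhx2 at -1.19 and -0.75, whereas Rax, a homeobox gene of the eye field, was at 0.38 (0.30 to 0.46) in humWT and 0.16 (0.10 to 0.21) in humdG. The 15 lowest genes overall included Ano1, a calcium-activated chloride channel, at 12.1 and 34.1 CPM in members against 84.1 and 132. They also included Col9a1, a collagen of the vitreous, at 82.3 and 76.0 CPM against 311 and 259, and Cp, a copper-carrying ferroxidase, at 42.1 and 66.9 against 217 and 222. Perp, Gm38576, Syndig1, Lama1, Gm15155, D030046N08Rik, Dipk1c, Gm28376, Dio3, C330002G04Rik, Fgf3 and 9430041J12Rik completed them.

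**Figure D2:**
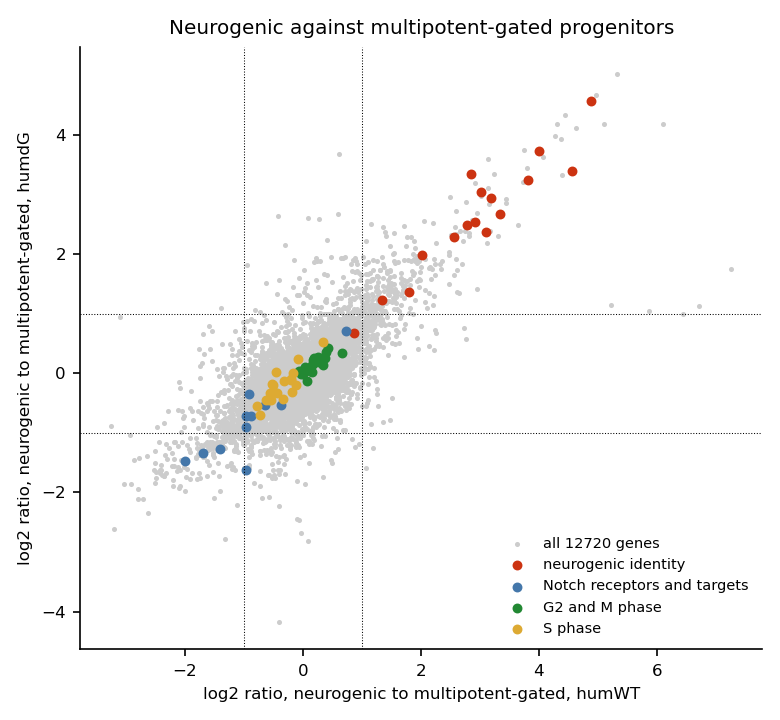
Log2 ratio of summed CPM, neurogenic to multipotent-gated progenitors, in humWT (x axis) and humdG (y axis), 1 point for each of 12720 genes. The neurogenic identity genes lay above 0 in both libraries, and 10 of 11 Notch receptor and target genes below it.

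RNA of connective tissue was found in most members, with a Col1a1 UMI in 383 of 387 in humWT and 637 of 846 in humdG. The median share of mesenchyme UMIs was 0.144% in humWT members against 0.140% in multipotent-gated progenitors and 0.0360% against 0.0382% in humdG. Of 6 mesenchyme genes 4 were at least 2-fold higher in members in both libraries, and their summed level was 5664 and 2026 CPM in members against 1694 and 769 in multipotent-gated progenitors. Col1a1 was the most abundant of them, and 0 of the 6 were at 0. At least 1% of UMIs came from mesenchyme genes in 24 members of each library, and such cells had been removed from the multipotent gate but not from the members. Without them 0 of the 6 genes were at least 2-fold higher in members of either library, with summed levels of 1673 and 559 CPM, and the log2 ratio of Hes6 was 2.13 in humWT and 2.04 in humdG.

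By genes of G2 and M phase the members lay with multipotent-gated progenitors and above both precursor gates. The 22 genes of G2 and M phase summed to 8174 CPM (interval 8089 to 8259.7) in humWT members and 7863 CPM (interval 7805 to 7922) in humdG members. The sums were 7108 and 6915 CPM in multipotent-gated progenitors, 3636 and 3210.1 in photoreceptor precursors and 1865 and 2435 in amacrine and horizontal precursors. Members stood above multipotent-gated progenitors by a log2 ratio of 0.20 and 0.19, and 19 of the 22 genes were above 0 in each library, with 0 at 2-fold. Hmgb2 supplied 38.8% and 41.0% of these UMIs. Top2a, a topoisomerase of dividing cells, was found after thinning in 66.7% and 68.7% of members, 63.9% and 63.3% of multipotent-gated progenitors and 24.0% and 29.1% of red blood cells. The direction rested on the gate, since with no exclusion of photoreceptor and amacrine genes the log2 ratio was -0.22 in humWT and -0.42 in humdG.

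Genes of S phase lay on the other side. The 20 genes summed to 1403 CPM (interval 1368 to 1439) in humWT members and 1502 CPM (interval 1477 to 1528) in humdG members, against 1811 and 1745 CPM in multipotent-gated progenitors, 692 and 804 in photoreceptor precursors and 631 and 778 in amacrine and horizontal precursors. The median member held 859 CPM of S-phase genes in humWT and 1071 in humdG, and the median multipotent-gated progenitor 1507 and 1544. Gins2, a subunit of the replication helicase, had log2 ratios of -0.72 and -0.70 and Mcm6 of -0.54 and -0.45. Rrm2, a subunit of ribonucleotide reductase, was above 0, at 0.35 (0.18 to 0.51) in humWT and 0.52 (0.40 to 0.65) in humdG. No gene of the S-phase list differed by 2-fold. Where members could hold no UMI of any exclusion gene, the log2 ratio of the sums was -0.14 in humWT and -0.01 in humdG.

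Ccnd1, the main G1 cyclin of retinal progenitors, was at 880.0 and 1301 CPM in members against 2151 and 2362 in multipotent-gated progenitors, a log2 ratio of -1.29 (-1.34 to -1.24) in humWT and -0.86 (-0.89 to -0.83) in humdG. Its partner kinase Cdk4 was at 0.26 and 0.27. Cdkn1c (p57), an inhibitor of cyclin-dependent kinases, was at 419 and 247 CPM in members, above the 302 and 161 of multipotent-gated progenitors and below the 863 and 764 of amacrine and horizontal precursors. Of the 9 genes of cell cycle exit, Btg2 and Gadd45g, a growth arrest gene, were at least 2-fold higher in members in both libraries. The other 7 had log2 ratios within 2-fold. The 9 genes summed to 1376 and 1227 CPM in humWT and humdG members against 835 and 679 in multipotent-gated progenitors. The sums were 1131 and 1297 CPM in photoreceptor precursors and 1370 and 1381 in amacrine and horizontal precursors.

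**Figure D3:**
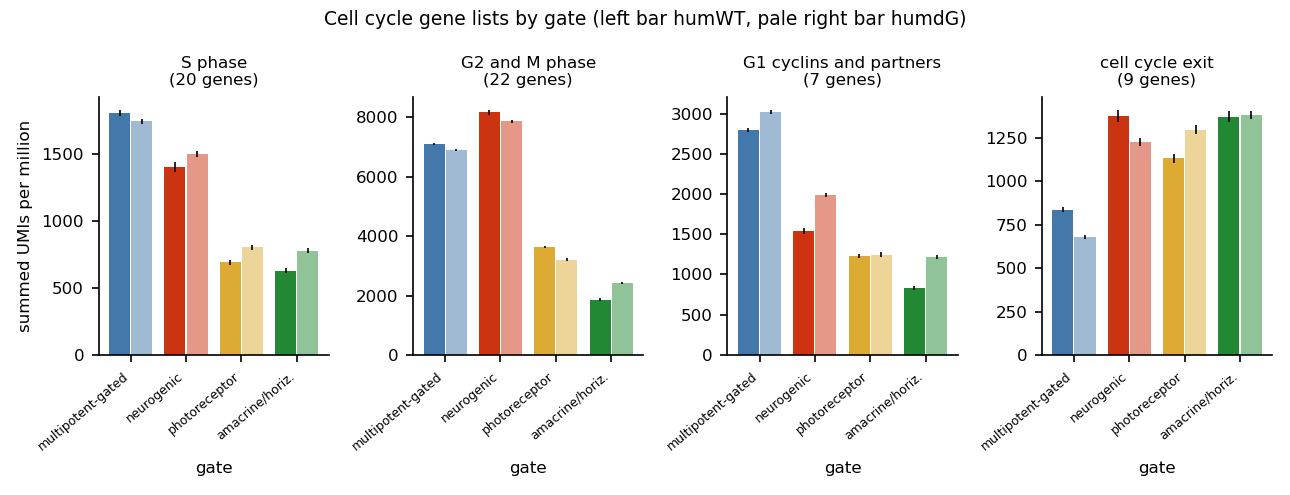
Summed CPM of 4 cell cycle lists in the 4 retinal gates, bars from 0, for humWT and humdG, with 95% Poisson intervals. Neurogenic progenitors held the highest sum for G2 and M phase in both libraries. For S phase and G1 they lay between the multipotent-gated progenitors and both precursor gates in both libraries. For cell cycle exit they lay above the multipotent-gated progenitors in both.

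Members differed among themselves with the number of gate genes found. That number was counted on the genes of the rule that chose the members, so the order is a description and no test. From humWT members with 2 gate genes to those with all 5, Hes6 went from 915 to 2369 CPM, Dll4 from 28.6 to 126, Top2a from 576 to 1252 and Btg2 from 205 to 423. Hes1 went from 211 to 43.6 CPM and Ccnd1 from 1194 to 345. In humdG the same ends were 764 and 2485 CPM for Hes6, 22.8 and 169 for Dll4, 312 and 48.9 for Hes1, and 1633 and 592 for Ccnd1. The collagen Col1a1, a connective tissue gene, went from 1092 to 143 CPM in humdG. In humWT it followed no steady order, at 2159.9, 2759, 1237 and 2502 CPM with 2, 3, 4 and 5 gate genes. Depth also moved with this order, with median UMIs of 7704 and 12929 at the ends in humWT and 8708 and 12701 in humdG. The part of depth and of connective tissue RNA was not tested.

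Olig2 and Foxn4 are known from progenitors with different outputs, Olig2 from those of cones and horizontal cells and Foxn4 from those of amacrine and horizontal cells. Members with an Olig2 UMI and no Foxn4 UMI numbered 58 in humWT and 92 in humdG, and those with Foxn4 and no Olig2 numbered 95 and 275. Both were found in 138 and 233 members and neither in 96 and 246. Of 5559 genes counted, 14 (0.252%) were at least 2-fold higher in the Olig2 subset in both libraries and 87 (1.57%) in the Foxn4 subset. The median log2 ratio over all of them was -0.06 in humWT and -0.06 in humdG.

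The Olig2 subset was led by Otx2. It was at 624 and 524 CPM there against 169 and 140.1 in the Foxn4 subset, a log2 ratio of 1.88 (1.62 to 2.15) in humWT and 1.90 (1.71 to 2.10) in humdG. Neurod1 was at 402 and 394 CPM against 101 and 123, and Neurod4, another bHLH factor of neuronal differentiation, at 145 and 111 against 23.5 and 40.02. Sstr2, Gm14207, Ramp2, Pkib and Pcdh17 were the rest of the 8 highest. Over all members, not the subsets alone, 5 cells held 53.0% of the Ramp2 UMIs in humWT and 59.7% in humdG. When each cell was thinned to 3000 UMIs before gating, the log2 ratio of Otx2 was 0.21 in humWT and 0.50 in humdG. With cells of at least 5000 UMIs it was 2.09 and 2.00. Thinning also changed which cells were members, and the cause of the lower ratio was not tested.

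The Foxn4 subset was led by Ephb1, an ephrin receptor, at 78.9 and 91.0 CPM against 11.9 and 14.6 in the Olig2 subset. Slc35f1 was at 324 and 251 CPM against 35.7 and 60.8, and Lfng at 48.9 and 35.2 against 6.81 and 9.73. Lypd6, Col23a1, Ust, Cntn6 and Vax2os were the others of the 8. All 22 genes of G2 and M phase were lower in the Olig2 subset in both libraries, with a median log2 ratio of -1.44 in humWT and -0.76 in humdG. Top2a was at -1.64 (-1.88 to -1.40) in humWT and -0.66 (-0.82 to -0.52) in humdG. All 15 counted genes of neurogenic identity were above 0, with medians of 0.92 and 1.10. Globin genes from red blood cells were higher in the Olig2 subset of humWT, 4 of 4 by at least 2-fold, and 0 of 4 in humdG, where 1.64% and 0.576% of all 5559 genes were higher. Of 21 counted collagens 2 were at least 2-fold lower in the Olig2 subset of humWT and 8 in that of humdG, with medians of 0.41 and -0.65. For 6 mesenchyme genes the counts were 0 and 2, with medians of 0.42 and -0.56, and for 2 counted RPE genes 0 and 2, with 0.58 and -1.67. Of all genes 5.99% were at least 2-fold lower in humWT and 4.21% in humdG. The part of these other cell types was not tested.

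**Figure D4:**
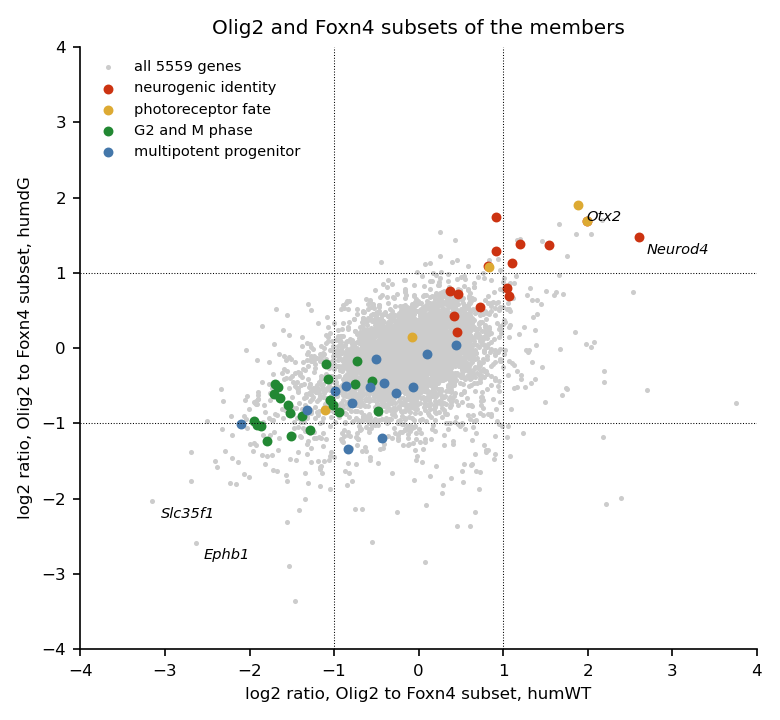
Log2 ratio of summed CPM, Olig2 subset to Foxn4 subset, in humWT (x axis) and humdG (y axis) for 5559 genes, 1 of which lay outside the axes. The counted neurogenic identity genes were above 0 and the 22 genes of G2 and M phase below 0 in both libraries.

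Genes of later fates were present to different degrees. The rule left out cells by photoreceptor, amacrine and horizontal genes that also chose the precursor gates, which bears on each comparison with those gates. Of 6 counted photoreceptor genes 3 were at least 2-fold higher in members than in multipotent-gated progenitors in both libraries, Otx2, Neurod1 and Mybl1. Mybl1, a Myb family factor, was at 241 and 219 CPM in members, 29.6 and 27.9 in multipotent-gated progenitors and 61.3 and 72.0 in photoreceptor precursors. Thrb, the thyroid hormone receptor of cones, was at 24.9 and 28.1 CPM in members and 238 and 280.0 in photoreceptor precursors, and Nrl, the rod factor, at 1.63 and 3.16 and 80.4 and 49.6. Of 8 counted amacrine and horizontal genes, Onecut1, Neurod4 and Barhl2 were at least 2-fold higher. Tubb3, a neuronal tubulin, was at 166 and 246 CPM in members, 29.1 and 49.0 in multipotent-gated progenitors and 511 and 713 in amacrine and horizontal precursors.

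The genotype comparison asks whether neurogenic progenitors of the variant differed from those of the control. Myrf itself (ENSMUSG00000036098, chr19:10208272-10240748, minus strand) had 86 UMIs in 28 humWT members and 16 UMIs in 13 humdG members, a log2 ratio of humdG to humWT of -3.43 (-4.34 to -2.69). A single humWT cell held 36 of the 86, and 5 cells held 73.3% of them. The Myrf log2 ratio was -2.12 in multipotent-gated progenitors, -1.27 in photoreceptor precursors, -1.97 in amacrine and horizontal precursors and -0.37 in red blood cells. How reads of the human last exon, which both genotypes carry, were counted at Myrf was not tested. Of 10309 genes with at least 100 UMIs over the members, 81 (0.786%) were at least 2-fold higher in humdG and 341 (3.31%) at least 2-fold lower, and the median log2 ratio was -0.06. Without the members that held at least 1% mesenchyme UMIs, 73 genes were higher and 210 lower, of 9887 counted. The balance turned in other settings. With cells thinned to 3000 UMIs before gating, 38 genes were higher and 31 lower, of 4144 counted. With no exclusion genes, 462 were higher and 350 lower, of 12956.

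Of the 16 genes of neurogenic identity 0 differed by 2-fold between the libraries, a count to be read beside the 0.786% and 3.31% of all genes and the choice of the members by neurogenic genes. The list had a median log2 ratio of -0.02 and a range of -0.26 to 0.90. The highest was Gadd45a, a growth arrest gene, at 124 and 231 CPM. Hes6 was at -0.08 (-0.12 to -0.04), Dll1 at -0.01 (-0.17 to 0.16) and Btg2 at 0.13 (0.05 to 0.23). The same list had a median of 0.34 in multipotent-gated progenitors, 0.30 in photoreceptor precursors and 0.59 in amacrine and horizontal precursors. The lists of G2 and M phase and of S phase also held 0 genes at 2-fold, with medians of -0.11 and 0.08.

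Of 18 counted multipotent progenitor genes 1 was at least 2-fold higher in humdG members and 1 at least 2-fold lower, beside 0.786% and 3.31% of all genes. A log2 ratio above 0 was found for 13, with a median of 0.25. The lower gene was Nfix, a nuclear factor I gene of late progenitors, with a log2 ratio of -1.29 (-1.51 to -1.07), with -0.85 in multipotent-gated progenitors and -1.80 in red blood cells, where free RNA is read. The higher gene, Fgf15, a growth factor of retinal progenitors, had a log2 ratio of 1.41 (1.23 to 1.59), with 0.84 in multipotent-gated progenitors and 1.85 in red blood cells. Hes1 was at 0.99 (0.84 to 1.15), with 0.55 and 0.89. Atoh7, required for ganglion cells and used by the rule, was at 855 and 1375 CPM in humWT and humdG members, a log2 ratio of 0.69, with 0.73 in photoreceptor precursors and 1.97 in red blood cells. Otx2 lay below 0, at -0.43 (-0.52 to -0.35), with 0.68 in red blood cells. Red blood cells of humdG were thus lower for Nfix and higher for the other genes named, with 1 humWT and 2 humdG members inside their gate. The part of free RNA in these differences was not tested.

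Ganglion cell genes were among those highest in humdG. Isl1, a LIM homeobox gene of ganglion and amacrine cells, had 8 UMIs in 8 humWT members and 230 UMIs in 71 humdG members, of which 47 were in 1 cell and 57.0% in 5 cells. The log2 ratio was 3.72 (2.80 to 5.03), with 0.96 in multipotent-gated progenitors, 1.93 in amacrine and horizontal precursors and 1.84 in red blood cells. Thinned members held an Isl1 UMI in 0.258% and 3.66% of cells and thinned red blood cells in 0.969% and 4.27%, a share that does not reflect the few cells with many UMIs. Sncg, a synuclein of ganglion cells, was at 4.42 and 20.8 CPM, a log2 ratio of 2.20, with 0.25 in multipotent-gated progenitors and 2.04 in red blood cells. Of its 184 humdG UMIs 34 were in 1 cell and 40.2% in 5 cells. Of 12 counted ganglion cell genes 5 were at least 2-fold higher in humdG and 0 lower, beside 0.786% and 3.31% of all genes. Their median log2 ratio was 0.90. Over the whole list, 5 cells held 11.2% of the UMIs in humWT members and 23.4% in humdG members. Pou4f2, which defines early ganglion cells, was at 0.930 and 3.72 CPM, with 60.6% of its 33 humdG UMIs in 5 cells. The part of free RNA and of these few cells in the ganglion gene differences was not tested.

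The other genes of the 12 highest in humdG included transcripts of the X chromosome and histone genes. Xist, expressed in female cells, was at 110.4 and 788 CPM, a log2 ratio of 2.83 in members and 3.42 in multipotent-gated progenitors, and Tsix was at 3.14. Hist1h2bl was at 2.62 in members and 2.58 in multipotent-gated progenitors. Over 58 replication-dependent histone genes the median was 1.04 in members, 0.88 in multipotent-gated progenitors, 1.35 in photoreceptor precursors and 1.69 in amacrine and horizontal precursors. Retnlg, a neutrophil gene, had 212 of 214 humdG UMIs in 1 cell. Gm29683, Rasef, Hist4h4, Igfbpl1 and Acer2 were also among them.

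Lower in humdG were genes of the RPE and of connective tissue. Of 7 counted RPE genes 6 were at least 2-fold lower and 0 higher, beside 3.31% and 0.786% of all genes. Their median log2 ratio was -1.61. Ttr, the thyroxine carrier secreted by the RPE, was at 229 and 9.48 CPM, but 812 of its 986 humWT UMIs were in 1 cell, as were 163 of 175 for the RPE opsin Rgr. For Dct and Pmel, pigment genes, single humWT cells held 595 of 1050 and 581 of 1154. The RPE list summed to 890.0 and 280.1 CPM in humWT and humdG members and 1332 and 415 in multipotent-gated progenitors, but 1 cell held 59.8% of the members' summed UMIs in humWT and 29.0% in humdG, so the sums are no level of a typical member. The list summed to 658 and 162 CPM in photoreceptor precursors and 1749 and 1326 in amacrine and horizontal precursors. In the latter, Ttr had a log2 ratio of 0.58 and Rgr of 2.08, while the rest of the 12 lowest genes lay below 0. Of 33 collagen genes 22 were at least 2-fold lower and 0 higher, again beside 3.31% and 0.786% of all genes. Their median was -1.39 in members, -1.13 in multipotent-gated progenitors, -1.34 in photoreceptor precursors and -1.11 in amacrine and horizontal precursors. Ankfn1, Upk3b, Slc16a8, Wfikkn2, Slc4a5, Rgs5, Cdh3, Tnmd and Col11a2 completed the 12 lowest with Ttr, Rgr and Myrf.

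Other cells of the same 2 libraries showed part of these differences. Of the 341 lower genes, 340 could be counted in multipotent-gated progenitors, where 166 were also at least 2-fold lower and 7 had the opposite sign, while of all 10262 genes counted in both gates 2.14% were lower. Of the 81 higher genes 74 could be counted there, with 36 also at least 2-fold higher and 6 of opposite sign, against 0.507% of all. By the same 2-fold limit, in photoreceptor precursors 147 of 283 lower genes were also lower and 28 had the opposite sign, against 2.25% of all genes lower, and 40 of 64 higher genes were also higher and 4 opposite, against 0.83%. In amacrine and horizontal precursors the lower genes gave 176 of 317 and 14 opposite, against 3.6%, and the higher genes 40 of 67 and 8 opposite, against 0.878%. In red blood cells 48 of 66 lower genes were also lower and 4 opposite, against 5.23%, and 20 of 21 higher genes were also higher and 0 opposite, against 6.4%. In 30 of the lower and 5 of the higher genes, over 50% of the UMIs in the library where the gene was higher came from 1 cell. The part of free RNA, of the sex of the pooled embryos and of single cells in these counts was not tested.

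**Figure D5:**
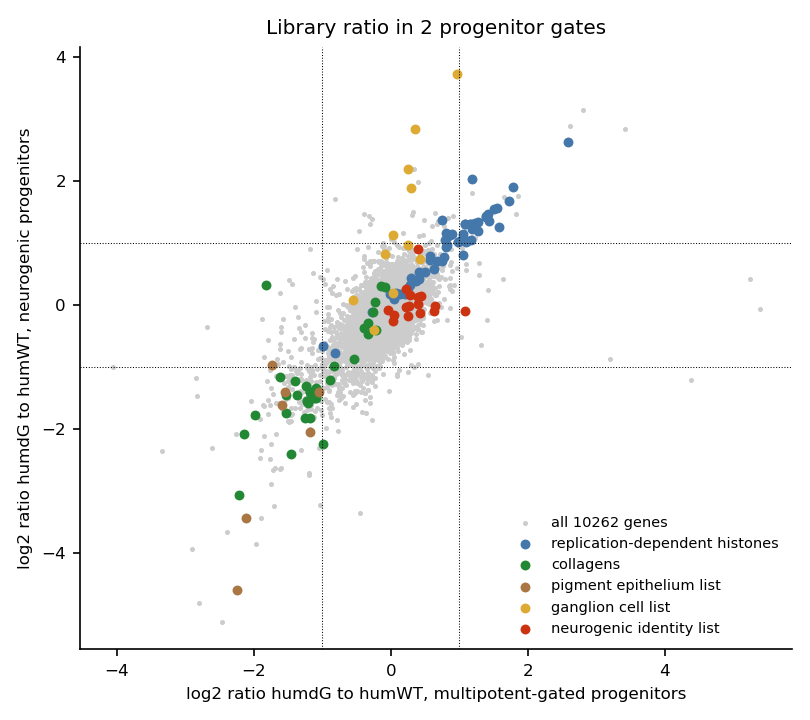
Log2 ratio of humdG to humWT in multipotent-gated progenitors (x axis) and in neurogenic progenitors (y axis), 1 point for each gene counted in both. Collagens lay mostly below 0 and histone genes mostly above 0 on both axes, the neurogenic identity genes were within 2-fold in members, and Isl1 was highest on the y axis at 3.72.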

How the data were processed

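The authors deposited raw UMI counts for each gene and barcode, made per the labels by 3' single-cell RNA sequencing. The submitters' processing notes name Cell Ranger 7.1.0, Seurat 4.1.1 and mm10. The labels' protocol speaks of other Myrf alleles and of a cornea that the study's methods leave in place, so the dissection is uncertain. The cell number that the study states is below the number of deposited barcodes, and its own limit on genes per cell was lower than the one used here.

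UMIs were summed over the cells of a gate in each library and divided by their total (CPM); the total of red blood cells left out globins. Log2 ratios had 0.5 counts added, with exact conditional binomial intervals, CPM had exact Poisson intervals and shares Clopper-Pearson intervals. A gene was counted with at least 50 UMIs in each library (gates and subsets) or 100 UMIs over both (genotypes), and 2-fold was the call. Genes sharing a symbol (78 gene IDs, Aldoa among them) were left out. Thinning drew 3000 UMIs from each cell. The markers of the comparison gates were fixed with the lists, but their scoring (for the multipotent gate at least 3 of 5 genes, 4 UMIs, a UMI of 1 required gene and fewer than 2 of the 5 genes of the members' rule; in all 3 comparison gates under 1% mesenchyme UMIs and no cell of the endothelium or red blood cell gates) was set after the data were seen. Scrublet called 1 and 0 doublets, so it did not work, and no doublet was removed; the 5% of cells with the highest scores held 24 members in each library.

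Genes beyond the lists were named by rank of the log2 ratio: the 15 highest and lowest against multipotent-gated progenitors (smaller of the 2 libraries, at least 100 UMIs), 12 between genotypes and 8 between subsets. Some genes of the gates, lists and ranks are not reported here. The members and lists were chosen with earlier results of these data known. Python 3.11.15, numpy 2.4.6, scipy 1.17.1, pandas 2.3.3 and scanpy 1.11.5 were used, and the ratios were tested on simulated data. Alternatives changed the gate limits, exclusion genes, depth, doublets, filters and scaling.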

Additional observations from a re-analysis of the deposited data

Results flagged for a closer look

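Against multipotent-gated progenitors, Ccdc68 and Enpp1 were at least 2-fold different in opposite directions in the 2 libraries. Ccdc68 had a log2 ratio of 1.06 in humWT and -1.59 in humdG and Enpp1 of 1.19 and -1.26. These differences between libraries were not tested.

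Barcodes under 3000 UMIs, which no comparison used, also met the marker rule, 19 in humWT and 134 in humdG.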

How the results depend on the processing

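Each genotype was 1 library, so depth limits genes of few UMIs and no interval covers animals or dissection. No paired analysis was possible because the groups share no more than 1 replicate number. Of the values recomputed under alternatives, 78 moved by less than their counting interval or 1.5 times, 80 moved further and 2 changed sign. The sign changes were the G2 and M phase ratio with no exclusion genes, in both libraries. The alternatives on mesenchyme, on red blood cell and endothelium gates and on genes found in 5% of members were chosen after seeing the data. The cause of each shift was not tested. With at least 3 of the 5 gate genes, members were 2.47% in humWT and 6.96% in humdG, and the Hes6 log2 ratio was 2.22 in humWT and 2.24 in humdG. The G2 and M phase ratio was 0.31 in humWT and 0.34 in humdG, and the S phase ratio was -0.28 in humWT and -0.13 in humdG. The Otx2 subset ratio was 1.58 in humdG, and 272 genes were lower in members. With at least 6 summed UMIs, members were 2.65% in humWT and 7.21% in humdG, and the Hes6 log2 ratio was 2.20 in humWT and 2.23 in humdG. The G2 and M phase ratio was 0.24 in humWT and 0.29 in humdG, and the Otx2 subset ratio was 1.35 in humWT and 1.45 in humdG. In this setting, 323 genes were lower in members. With cells thinned to 3000 UMIs before gating, members were 2.32% in humWT and 6.58% in humdG, and the Hes6 log2 ratio was 2.30 in humWT and 2.26 in humdG. The G2 and M phase ratio was 0.31 in humWT and 0.33 in humdG, and the S phase ratio was -0.40 in humdG. The Otx2 subset ratio was 0.21 in humWT and 0.50 in humdG, and 110 genes were higher in members. In this setting, 289 genes were lower in members, and 38 genes were higher in humdG. In this setting, 31 genes were lower in humdG. With no UMI of any of the 9 exclusion genes, members were 0.867% in humWT and 2.2% in humdG, and the Hes6 log2 ratio was 1.92 in humWT and 1.80 in humdG. The G2 and M phase ratio was 0.15 in humWT, and the S phase ratio was -0.14 in humWT and -0.015 in humdG. The Otx2 subset ratio was 1.58 in humWT and 2.92 in humdG, and 146 genes were higher in members. In this setting, 53 genes were higher in humdG, and 94 genes were lower in humdG. With no exclusion genes, members were 5.17% in humWT and 15.5% in humdG, and the Hes6 log2 ratio was 1.44 in humWT and 1.33 in humdG. The G2 and M phase ratio was -0.22 in humWT and -0.42 in humdG, and the S phase ratio was -0.74 in humWT and -0.52 in humdG. The Otx2 subset ratio was 0.76 in humWT and 1.13 in humdG, and 875 genes were higher in members. In this setting, 103 genes were lower in members, and 462 genes were higher in humdG. With at least 5000 UMIs per cell, members were 4.87% in humWT and 11.3% in humdG, and the G2 and M phase ratio was 0.17 in humdG. Under 10% mitochondrial UMIs, the Hes6 log2 ratio was 2.02 in humdG, and the G2 and M phase ratio was 0.20 in humdG. Without the top 5% of Scrublet scores, the Hes6 log2 ratio was 2.07 in humWT. Without members at 1% or more mesenchyme UMIs, the Hes6 log2 ratio was 2.13 in humWT and 2.04 in humdG, and the G2 and M phase ratio was 0.29 in humWT and 0.24 in humdG. The S phase ratio was -0.29 in humWT and -0.18 in humdG, and 210 genes were lower in humdG. Without members in the red blood cell or endothelium gates, the G2 and M phase ratio was 0.20 in humdG. With a filter of 1 UMI, 1056 genes were higher in members, and 500 genes were lower in members. In this setting, 1541 genes were higher in humdG, and 3499 genes were lower in humdG. With a filter of 20 UMIs, 281 genes were higher in humdG, and 890 genes were lower in humdG. Over genes found in at least 5% of members, 106 genes were lower in members. Of all deposited barcodes, members were 2.22% in humWT and 4.32% in humdG. Of the 4 retinal gates, members were 13.8% in humWT and 18.6% in humdG.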
